A study of Ceratopteris richardii with 6 samples.

Results

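In callus of the fern Ceratopteris richardii, 151 genes kept nearly the same FPKM in all 6 libraries, whether the tissue was proliferating or differentiating. They were chosen from the deposited table by 3 conditions: a gene ID beginning KP509_, a mean of at least 100 and under 1000 FPKM, and a highest value at most 1.2 times the lowest. FPKM counts fragments per length of transcript and per mapped fragments of the library. Levels of different genes can thus be set beside each other on this scale. Since it is relative to each library, a change in the total mRNA of the cells would not be seen. Of 30001 genes in the table, 28430 had a KP509_ ID, and 1606 of these lay in the same range of levels, so the steady genes were 9.40% of that class. All 6 values took part in the choice. The steadiness of the 151 genes, and the small size of their difference between the groups, is therefore a description of how they were chosen and is given without a test.

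The fern was studied as callus, an unorganised mass of cells grown in culture, from which new shoots or plants can form once the cells begin to differentiate. Each state was represented by 3 libraries, which the labels call biological replicates. The labels give no age, medium or hormone, and titles beginning BA in proliferating and MS in differentiating callus are not explained. What else the cultures differed in cannot be told apart from the state of the callus. The gene IDs came with no names or descriptions, so the callus label could not be checked against marker genes.

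Genes of steady level serve as internal references: the amount of any other transcript is read relative to them, as in quantitative PCR, to cancel differences in how much RNA was put in. A good reference gives the same reading in every tissue state that is compared and is abundant enough to be measured well. In plants, genes of the cytoskeleton, of translation, of sugar breakdown and of protein turnover are often used in this way. Which of these families the steady genes belong to was not analysed here, since only their locus tags were available.

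Differentiating 3 stood apart from its group, and proliferating 2 followed no other library closely. For differentiating 3, over 1454 other genes of the level class deviations from the gene means, in log2 FPKM, had a Pearson r of 0.55 with those of proliferating 1, and of -0.50 and -0.60 with those of differentiating 1 and 2. The deviations of proliferating 2 had r of -0.04 and 0.09 with those of proliferating 1 and 3. With those of differentiating 1, 2 and 3 its r was -0.25, -0.19 and -0.28. Without differentiating 3 the same conditions gave 187 genes, and without proliferating 2 they gave 208, each with 149 of the 151 among them. Leaving out a library cannot raise a gene's ratio, so a steady gene is lost only if its mean leaves the range of levels. The 149 thus say nothing about how far the choice depended on these libraries. Summed FPKM ran from 953954 to 1027755 per library, and the number of reads behind them is unknown. Limma was fitted to the 22371 genes averaging 1 FPKM or more. With a Benjamini-Hochberg adjusted p under 0.05 and a 2-fold difference as the rule, it called 0 genes (0.0%) between the groups, and 2843 genes (12.7%) had an unadjusted p under 0.05. Without differentiating 3 limma called 337 genes, and without any other single library it called 0. The 151 steady genes could not meet this rule, since the limit on their ratio keeps them far below a 2-fold difference.

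The most even gene was KP509_13G013900. It stood at 123.0, 126.2 and 124.97 FPKM in proliferating 1, 2 and 3, and at 126, 129 and 123 FPKM in differentiating 1, 2 and 3. Its highest value was 1.051 times its lowest, its coefficient of variation was 1.81%, and the values of the 2 groups overlapped. KP509_14G007100 was nearly as even, at 107, 102 and 103 FPKM in the proliferating and 107, 103 and 102 FPKM in the differentiating libraries. Its group means were 104 ± 2.70 and 104 ± 2.77 FPKM (mean ± SD, n = 3), with proliferating 1 and differentiating 1 the higher library of each group. KP509_21G051500 read 176, 172 and 167 FPKM in the proliferating and 180, 168 and 169 FPKM in the differentiating libraries. Replicate 1 was the highest library of each group for this gene too, and the groups overlapped.

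KP509_29G083800 had 146, 144 and 135 FPKM in the proliferating and 138, 137 and 145 FPKM in the differentiating libraries. KP509_01G032800, the most abundant of the 10 most even genes, had 191, 194 and 184 FPKM and 199, 186 and 195 FPKM. KP509_34G065800 had 113, 119 and 110 FPKM and 119, 115 and 110 FPKM. In none of these 3 genes did the groups separate, and proliferating 3 was the lowest of the 6 libraries in each. KP509_36G048000 was the exception among the 10: at 106, 108 and 109 FPKM in the proliferating and 114, 111 and 115 FPKM in the differentiating libraries, all differentiating libraries lay above all proliferating ones. The difference was small, from 108 ± 1.67 to 114 ± 2.00 FPKM (mean ± SD, n = 3), or 0.08 on the log2(FPKM + 1) scale. KP509_02G110100, KP509_23G040100 and KP509_03G091800 completed the 10, with means over all libraries of 128, 168 and 117 FPKM and ratios of highest to lowest of 1.09 each. In KP509_03G091800 the differentiating libraries lay within 116 to 117 FPKM, and the highest library was proliferating 3 with 124 FPKM.

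**Figure D1:**
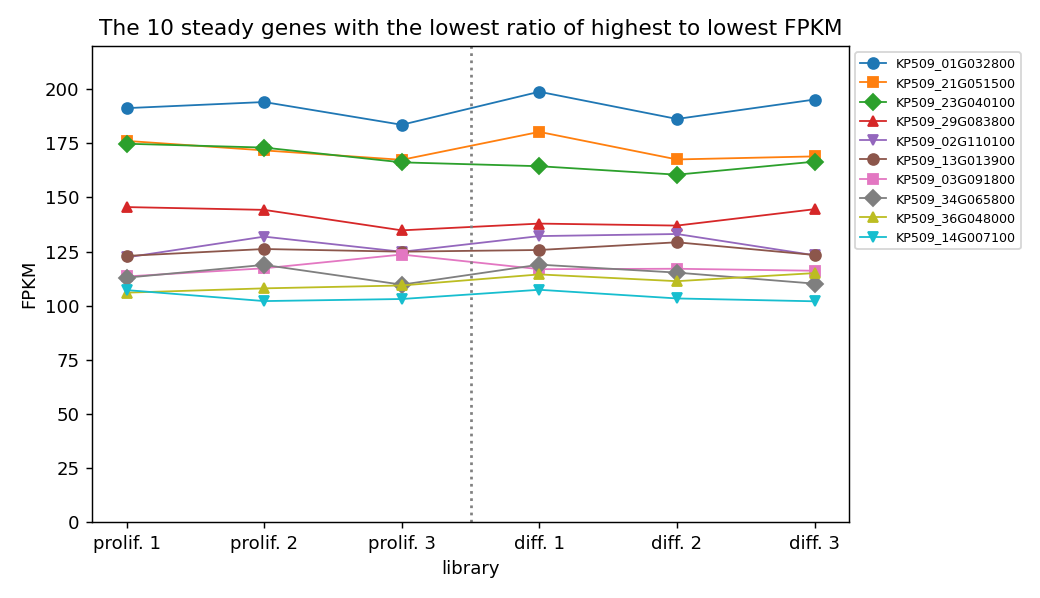
FPKM of the 10 steady genes with the lowest ratio of highest to lowest value, by library, with the 3 proliferating libraries left and the 3 differentiating libraries right of the dotted line. Each line is 1 gene and stays close to level, the highest of them between 184 and 199 FPKM.

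The limit of 1.2 cut through a continuous distribution. Among the 151 genes the ratio of highest to lowest had a median of 1.16, 13 genes stayed at or under 1.1, and the coefficient of variation was under 5% in 51. KP509_13G021600, KP509_21G017200 and KP509_15G054300 stood just inside, with ratios of 1.19992, 1.19985 and 1.19676. KP509_02G010300, KP509_04G108600 and KP509_19G022100 stood just outside, at 1.20033, 1.20051 and 1.20087. Values on both sides of the limit looked alike. KP509_13G021600 had 107, 120 and 104 FPKM in the proliferating and 121, 124 and 114 FPKM in the differentiating libraries. KP509_02G010300 had 135, 126 and 115 FPKM and 131, 138 and 119 FPKM. The other 1455 genes at this level had a median ratio of 1.51, and 332 genes of the class varied by 2-fold or more between their extreme libraries.

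**Figure D2:**
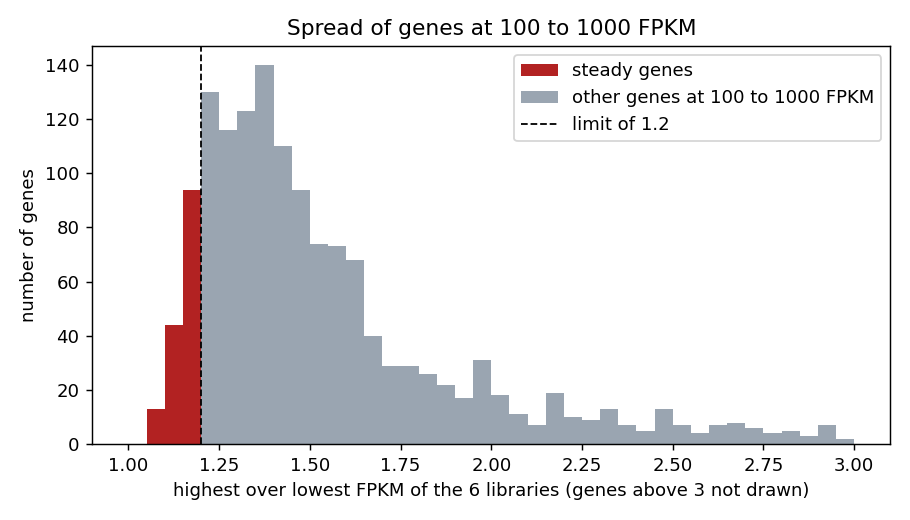
Number of genes by the ratio of their highest to their lowest FPKM over the 6 libraries, for genes averaging 100 to 1000 FPKM. The 151 steady genes (red) are the left flank of 1 hump with its mass above the limit of 1.2 (dashed line), not a separate peak.

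Steady genes were found at every level within the class. They made up 10.4% of 924 genes at 100 to 200 FPKM, 8.57% of 280 genes at 200 to 300, 7.02% of 228 genes at 300 to 500 and 8.62% of 174 genes at 500 to 1000 FPKM. The middle steady gene averaged 159 FPKM, and for the other genes of the class the corresponding median level was 176 FPKM. The most abundant were KP509_25G007600 with 964 ± 50.04 FPKM and KP509_24G006900 with 961 ± 53.9 FPKM (mean ± SD over 6 libraries). KP509_25G007600 had 928, 979 and 1052 FPKM in the proliferating and 958, 907 and 956 FPKM in the differentiating libraries. KP509_24G006900 had 1031, 953 and 956 FPKM and 956, 998 and 871 FPKM. The highest library was a proliferating one and the lowest a differentiating one in both, with groups that overlapped. KP509_26G038900, KP509_19G039800 and KP509_13G021500 followed at 749, 727 and 721 FPKM.

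At the lower end, KP509_21G086200 had 101.02, 101.7 and 99.9 FPKM in the proliferating and 95.1, 97.2 and 106 FPKM in the differentiating libraries, and differentiating libraries were both its highest and its lowest. KP509_12G033100, KP509_35G055800 and KP509_21G044300 averaged 100.1, 100.3 and 100.5 FPKM, and their ratios of highest to lowest were 1.14, 1.18 and 1.19. KP509_30G019800, at 102 FPKM, was the fifth from the bottom and differed more between the groups than any other steady gene, as given next.

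Between the states, the steady genes leaned neither way. On the log2(FPKM + 1) scale the difference, differentiating minus proliferating, had a median of -0.0022 and ran from -0.17 to 0.18, with 74 genes above 0 and 77 below. Over all tested genes the median was -0.0011, and the median size of a difference, whatever its sign, was 0.18 against 0.06 for the steady genes. A difference of more than 0.26 would break the limit of 1.2, so the choice fixed the narrow range and kept the median near 0. Nothing is read from the lack of a lean. The 2 groups of libraries did not overlap in 14 steady genes, 9.27%, of which 6 were higher and 8 lower in differentiating callus. Over all tested genes the groups did not overlap in 17.1%, with 7.83% higher and 9.28% lower. Nothing is read from the gap between these shares, since the limit removes genes whose groups lie far apart.

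Among the 14 genes without overlap, KP509_30G019800 was at 94.6, 97.0 and 95.4 FPKM in the proliferating and 110, 111 and 103 FPKM in the differentiating libraries, a mean of 95.7 ± 1.23 against 108 ± 4.25 FPKM (SD, n = 3) and 1.13-fold higher. KP509_01G015900 came next among the higher genes, at 153 ± 4.58 and 166 ± 3.06 FPKM. In the other direction KP509_28G031800 was at 192, 187 and 180 FPKM in the proliferating and 168, 164 and 164 FPKM in the differentiating libraries. Its means were 187 ± 6.20 and 166 ± 2.58 FPKM. KP509_32G054900 had 261 ± 7.44 and 234 ± 6.20 FPKM. Each of these 4 genes met the limit on its ratio and yet read higher in every library of one state than in any of the other. The abundant KP509_26G038900 was among the 14 as well, with 784 ± 28.9 FPKM in the proliferating and 714 ± 7.14 FPKM in the differentiating libraries.

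**Figure D3:**
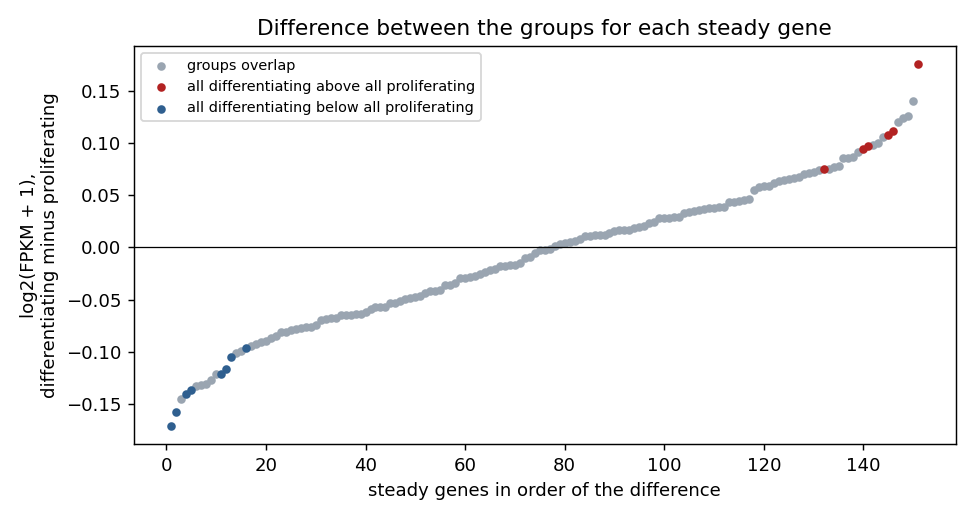
Difference in log2(FPKM + 1), differentiating minus proliferating, for each of the 151 steady genes in order of size. Red and blue points are the 6 and 8 genes whose groups do not overlap, and all points lie between -0.17 and 0.18.

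The small deviations that remained were spread over the libraries. For 52 of the 151 genes, 34.4%, the highest and the lowest library belonged to the same group, 35 times proliferating and 17 times differentiating, against 24.3% of the other genes at this level. Proliferating 1 held the highest or lowest value most often, in 66 of the 151 steady genes, and differentiating 1 least often, in 36. Among the other genes of the class, differentiating 2 was an extreme in 51.8% and differentiating 3 in 18.6%. For the steady genes these shares were 29.8% and 34.4%. The same values chose the steady genes, and the limit removes genes whose groups or libraries lie far apart. Nothing is therefore read from these gaps between steady and other genes. The median deviation from the gene's own mean on the log2 FPKM scale lay between -0.03 in differentiating 3 and 0.03 in proliferating 2. Differentiating 3 was below the gene's mean in most steady genes, with 52 of 151 above it, and proliferating 2 was above it in 96.

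In the other genes of the class some libraries deviated together, while proliferating 2 had r between -0.28 and 0.09 with each of the other libraries. The log2 deviations of differentiating 1 and differentiating 2 had a Pearson r of 0.79 over 1454 of these genes. For the 151 steady genes this r was 0.16, and that of proliferating 1 and differentiating 3 was 0.02. A first principal component held 72.8% of the variance of the deviations in the other genes and 31.1% in the steady genes. These are descriptions across genes of the same 6 libraries, deviations of 1 gene sum to 0, and the limit on the ratio takes out the genes with the largest shared swings.

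**Figure D4:**
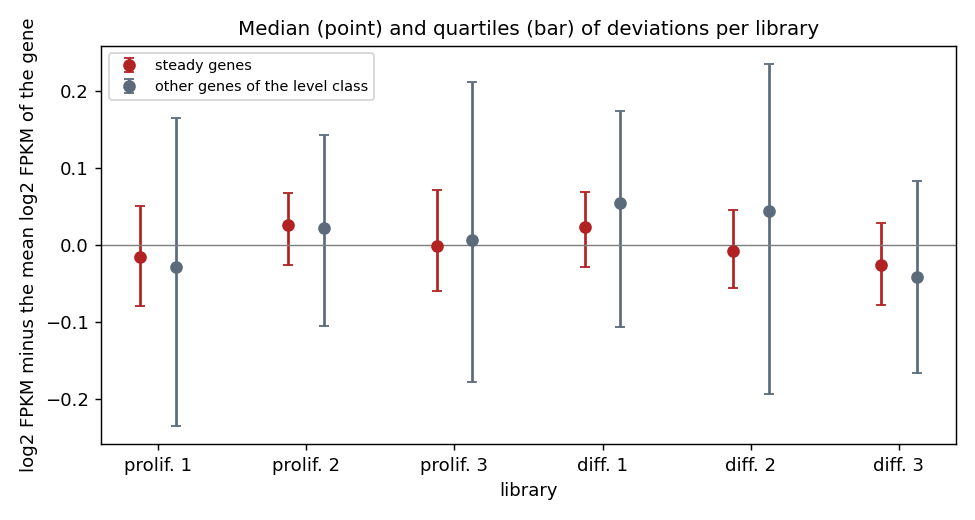
Deviation of each library from the gene's mean, in log2 FPKM, as the median (point) and quartiles (bar) over the 151 steady genes (red) and the other 1455 genes at 100 to 1000 FPKM (grey). Medians of the steady genes lie between -0.03 and 0.03, and proliferating 2 and differentiating 1 are the highest.

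Whether steadiness carries over to a library that had no part in the choice was read by leaving out each library in turn. The conditions were applied to the other 5 libraries, and the sixth was then set against their mean. With differentiating 1 left out, 181 genes met the conditions, and in 178 of them, 98.3%, the sixth library was within 1.2-fold of the mean of the other 5. The share was 95.7% of 187 genes for differentiating 3 and 87.0% of 230 genes for differentiating 2. For proliferating 1, 2 and 3 it was 83.5% of 249, 89.4% of 208 and 80.7% of 274 genes. The average was 89.1% ± 6.87 (SD over the 6 libraries, which share data with each other). Other genes at the same level, those that did not meet the conditions in the 5 libraries, were within 1.2-fold in 62.1% ± 10.6, from 50.4% for differentiating 2 to 74.2% for proliferating 2. The genes chosen on 5 libraries had the higher share in 6 of 6 libraries. The other genes were those past the limit in these 5, which favours a lower share.

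Staying close to the mean is easier than staying within the full limit. Once the sixth library was included, 54.7% to 84.0% of the genes chosen on 5 libraries still had a highest value at most 1.2 times the lowest. The smallest of these shares was for proliferating 3 and the largest for differentiating 1. The same procedure in 10 to 100 FPKM, where 1222 to 1839 genes met the conditions in 5 libraries, gave 85.9% ± 7.93 against 66.2% ± 9.71 for other genes at that level.

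**Figure D5:**
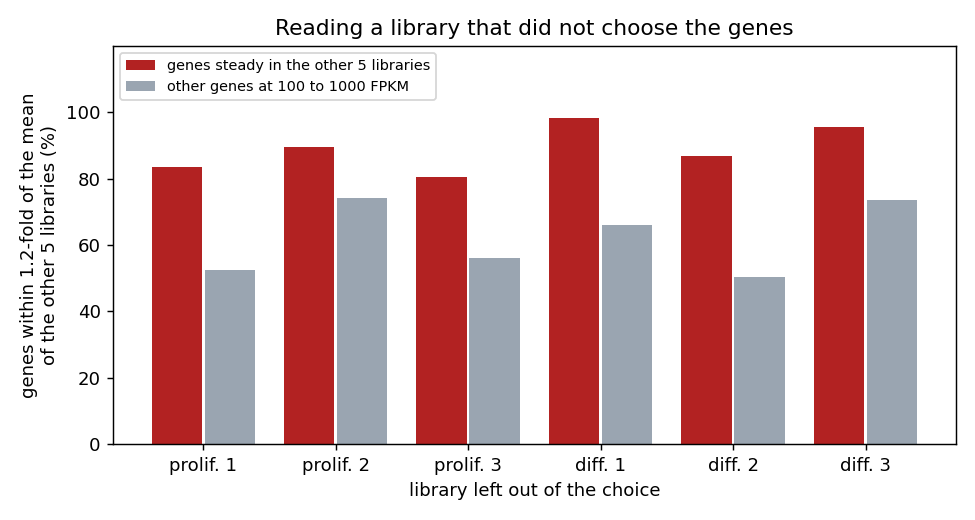
Share of genes (%) whose value in a left-out library was within 1.2-fold of the mean of the other 5, for genes that were steady in those 5 (red) and for other genes at 100 to 1000 FPKM (grey). Red bars stand between 80.7% and 98.3% and exceed the grey bar for each of the 6 libraries.

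Steadiness within one state also went with steadiness within the other. At 100 to 1000 FPKM, 504 genes met the limit of 1.2 over the 3 proliferating libraries. Of these, 298 (59.1%) also met it over the 3 differentiating libraries. Among the 1109 other genes of that level the share was 30.03%. In the reverse direction, 297 of 630 genes steady in differentiating callus were steady in proliferating callus, 47.1%, against 21.3% of 957 others. Genes are not independent of each other and are not replicates of a state, so these shares are given without an interval. The mean of the other state was within 1.2-fold in 80.6% of the 504 and in 85.2% of the 630 genes, against 57.1% and 52.0% of the others. Of the 298 genes steady within each state when chosen in proliferating callus, 269 also had means within 1.2-fold of each other. These shares moved with the library left out, in part by construction. Leaving out a library of the group that was read can only raise the share, since fewer libraries have to meet the limit. Leaving one out of the group that chose the genes loosens the choice. How much of the movement belongs to single libraries was not tested. The 59.1% ran from 44.8% without proliferating 2 to 86.7% without differentiating 3, where the others stood at 31.1% and 69.7%. The 47.1% ran from 37.1% without differentiating 3 to 75.6% without proliferating 1, where the others stood at 15.5% and 54.8%. It was 74.8% without proliferating 3, with the others at 40.3%.

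As a set, the steady genes took 3.42% to 3.67% of summed FPKM. Their geometric mean in each library, relative to that over all libraries, gave scaling factors from 0.983 in differentiating 3 to 1.013 in proliferating 2 and differentiating 1. The factors averaged 1.00 ± 0.010 in proliferating and 0.998 ± 0.015 in differentiating callus (mean ± SD, n = 3). Factors near 1 follow from a choice made on unscaled values. Dividing the libraries by these factors left the limma comparison at 0 called genes and 2833 genes at an unadjusted p under 0.05.

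To order the steady genes as references, the SD of the log2 ratio to each other steady gene was averaged over the other 150 genes, as the geNorm method does. This measure rests on the values that chose the genes, and against flat genes it largely restates a gene's own spread. KP509_13G013900 and KP509_14G007100 had the lowest averages, at 0.081 and 0.084, and KP509_34G065800 was the third at 0.085. The highest averages, 0.139 and 0.134, belonged to KP509_09G008000 and KP509_17G073200. KP509_09G008000 had 383, 367 and 383 FPKM in the proliferating and 335, 320 and 382 FPKM in the differentiating libraries, so that differentiating 3 read like a proliferating library. KP509_17G073200 had 251, 240 and 279 FPKM and 250, 278 and 279 FPKM. The 3 first genes alone gave factors between 0.976 and 1.02, a wider range than that of the whole set. Proliferating 3 had 0.982 with these 3 genes and 1.002 with the whole set, and differentiating 2 had 1.011 and 0.997. The order of the group means turned as well: with the 3 genes they were 0.997 ± 0.014 in proliferating and 1.004 ± 0.025 in differentiating callus (mean ± SD, n = 3), a difference smaller than either SD.

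The choice depended in part on the scale. Under median-of-ratios scaling 158 genes met the same conditions, and 119 of them were among the 151. Upper-quartile scaling kept 123 of the 151, quantile normalization 111, and rescaling each library to the same sum 113. Under all of these scalings and as deposited, 79 genes, 52.3%, met the conditions. KP509_13G013900 had the smallest worst-case ratio of highest to lowest, 1.08, followed by KP509_02G110100 with 1.098 and KP509_1Z015400 with 1.104. KP509_14G007100, the second most even as deposited, reached 1.12 when each library was rescaled to the same sum.

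Steady genes were scattered over the genome. All 151 matched a locus tag of the C.richardii_v2 assembly table, and they lay on 37 of its 39 numbered chromosomes, with 2 on unplaced sequences. Chromosome 29 held 8 of them among 29 genes at this level, 27.6%, and chromosomes 20 and 31 held 0 of 43 and 0 of 30, chosen here after the counts were seen and not tested. The 8 genes of chromosome 29 averaged 118 to 349 FPKM and were at least 17 places apart in gene order. Only 1 pair of steady genes were direct neighbours, KP509_13G021500 at 721 FPKM and KP509_13G021600 at 115 FPKM, and their gene models did not overlap. Their values did not run in parallel: KP509_13G021500 was highest in proliferating 1 with 801 FPKM, where KP509_13G021600 had 107 FPKM, the second lowest of its 6 values.

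Direct neighbours in gene order were read as well, at any level of at least 1 FPKM. The 206 tested neighbours of the 151 genes had a median ratio of highest to lowest of 1.59, and 14 of them, 6.80%, were within 1.2. For the 1980 tested neighbours of the other genes in the class these values were 1.56 and 5.71%. A neighbour was counted for each gene of the set that it adjoined. Of the 14, 2 were steady genes, the adjacent pair itself, and so within 1.2 by the choice. Among the 113 neighbours of the other genes within 1.2, 16 were steady genes. Median levels of the neighbours were 15.8 and 18.1 FPKM. The difference between 6.80% and 5.71% was not tested. No steady gene shared its 6 values with a second gene. Only 119 of the 22371 tested genes did, so the 0 among 151 is not read as a trait of the steady genes. Copies that share some of their reads cannot be seen from such values.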

How the data were processed

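Polyadenylated RNA of 6 callus libraries was sequenced from both ends, per the labels' protocols. The authors deposited FPKM per gene with 1 column per library, per the file headers. The submitters' processing notes name RSEM, DESeq2, Bowtie2 2.2.5 and HISAT2 2.1.0 and give no roles. The build is not given in the sources used here, and no coordinates are printed. Depth is unknown, and FPKM allow no count model.

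Genes averaging 1 FPKM or more were fitted with limma 3.58.1 (R 4.3.3) on log2(FPKM + 1), group as the only term, with a mean-variance trend and Benjamini-Hochberg adjustment over all tested genes. Fold changes on this scale understate those of low genes. Selection, left-out libraries and scaling were computed in Python 3.11.15 with pandas 2.3.3, NumPy 2.4.6, SciPy 1.17.1 and matplotlib 3.10.9. The scripts were tested on simulated data. P-values rest on the spread between 3 libraries a group, and separate cultures are not stated. The members, their conditions and the lists were chosen with earlier results of these data known. Named genes were those with the 10 lowest ratios, the 5 highest and 5 lowest means, 3 on each side of the limit, the 2 largest differences in each direction without overlap, and the 2 most and least stable. Others were named after their values were seen. Planned lists of reference families, protein features and promoter motifs needed sequences or descriptions that were not used here.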

Additional observations from a re-analysis of the deposited data

How the results depend on the processing

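The number of steady genes was 13, 397, 660 and 864 at limits of 1.1, 1.3, 1.4 and 1.5, against 151, as follows from the limit itself, and 146 to 159 under 4 other scalings. With 1 library left out it ran from 181 to 274, since fewer libraries had to meet the limit. Among them were 149 to 151 of the steady genes, which could be lost only through a mean outside the range of levels. Limma called 0 genes under 6 settings of pseudocount, filter and scaling, 112 with the replicate number as a block, and 0 to 337 with 1 library left out, the 337 without differentiating 3. The limit on their ratio keeps steady genes from being called in any of these fits. Their median log2 difference ran from -0.017 to 0.0027 with 1 library left out, and from -0.0054 (quantile normalization) to 0.0050 (scaled by the steady genes) under the other settings, block included. To judge a pairing by replicate number, deviations were taken from the mean of each group, in log2(FPKM + 1), over the 22371 tested genes. Proliferating and differentiating libraries with the same number had r of -0.0955, 0.572 and 0.45 for numbers 1, 2 and 3. With unlike numbers r ran from -0.63 (proliferating 2 with differentiating 3) to 0.34 (proliferating 1 with differentiating 3). A pairing by number was thus not established, and the block is a value only. The share of genes within 1.2-fold in a left-out library was 89.8% with median-of-ratios scaling and 95.7% with a limit of 1.3, against 62.0% and 71.4% of other genes. The share steady in the other state was 31.9% (chosen in proliferating) and 20.8% (chosen in differentiating) at a limit of 1.1, against 13.5% and 8.12% of other genes, and ran from 44.8% to 86.7% and from 37.1% to 75.6% with 1 library left out. Beyond fewer libraries and the limit itself, the cause was not tested. Protein length was not run. The limit of 1.4 and the rescaling to the same sum were added after seeing the data.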

Other observations

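Genes outside the level class also met the limit of 1.2. At 1000 FPKM or more there were 6 such genes among 85 with a KP509_ ID. KP509_21G032100 was the most abundant, at 4319 ± 185 FPKM in the proliferating and 3905 ± 61.4 FPKM in the differentiating libraries (mean ± SD, n = 3), with groups that did not overlap. KP509_37G059400 was at 1495 ± 23.7 and 1622 ± 83.9 FPKM, again without overlap and in the opposite direction. The other 4, KP509_32G017100, KP509_06G067700, KP509_35G029400 and KP509_20G024700, averaged 1393, 1300.4, 1242 and 1039 FPKM over all libraries, and their groups overlapped. KP509_06G067700 was the most even of the 6, with 1311, 1364 and 1315 FPKM in the proliferating and 1286, 1330 and 1195 FPKM in the differentiating libraries.

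At 10 to 100 FPKM, 914 of 11212 genes with a KP509_ ID met the limit, 8.15%, and at 1 to 10 FPKM 114 of 8306, 1.37%. Gene models added by the authors, with IDs of their own, met it in 8 of 315 cases at 10 to 100 FPKM, 2.54%, and in 1 of 28 cases at 100 to 1000 FPKM. That 1 model, BGI_novel_G001856, had 215, 190 and 202 FPKM in the proliferating and 216, 216 and 183 FPKM in the differentiating libraries. The median ratio of highest to lowest at 10 to 100 FPKM was 1.96 for the added models and 1.46 for genes with a KP509_ ID. These genes were named after their values were seen, and no difference between the classes was tested.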
